A study of Homo sapiens with 6 samples.

Results

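The histone cluster genes were examined in RH36 cells that had received pre-miR-27a or a negative pre-control. They were taken as every array probe whose gene name begins with HIST1H, HIST2H, HIST3H or HIST4H, which gave 85 probes for 64 gene names, out of 41000 probes and 30484 gene names on the array. By class, 6 probes belonged to the linker histone H1, 23 to H2A, 25 to H2B, 16 to H3 and 15 to H4. RH36 is an established line of embryonal rhabdomyosarcoma, a muscle-like childhood tumour, and it lacks the PAX3/FOXO1 fusion. Both groups were transfected transiently with a small RNA precursor, with 3 biological replicates each, and each RNA was hybridized with Cy3 to its own array. The labels give 10 nM of precursor and, for the pre-miR-27a cultures, 48 hours, while the study's methods state another concentration and time, and which of them applies to the arrays was not settled. The arrays carry probes for mRNA, so the level of miR-27a itself was not checked.

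A level below is a quantile-normalized log2 signal, and a fold change is the mean level on pre-miR-27a arrays minus that on pre-control arrays, with its standard error (SE), n = 3 arrays in each group unless another n is given. Tests were made with limma over all 36469 probes kept, and a probe was called at an adjusted p under 0.05. The main fit did not use the replicate numbers, and a fit with them as a block is given beside it. Each group had a slide and a scan of its own, and an effect of the slide on the values below cannot be told apart from that of the transfection. Levels were compared only within a probe.

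Core histones H2A, H2B, H3 and H4 form the protein spool around which DNA is wound, and H1 binds the DNA between the spools. Most of the clustered genes are replication dependent: they are transcribed in S phase under NPAT, and their mRNAs end in a stem-loop bound by SLBP in place of a poly(A) tail. Some of them, HIST1H1C, HIST1H2BD, HIST2H2BE and HIST1H2AC among them, can also make polyadenylated mRNA. Labelling kits of the type used prime from poly(A), and histone genes of a class have closely similar coding sequences, so that a probe may read several genes. The sequences of the probes were not used here, and which genes each probe reads was not tested.

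In the probe positions of the array files, on hg18, the members fell into 6 stretches. HIST1 genes on chromosome 6 lay at chr6:25834542-26393535 with 40 probes, at chr6:27201267-27223284 with 7 probes and at chr6:27883265-27969626 with 19 probes. HIST2 genes lay at chr1:148071020-148125868 with 12 probes and HIST3 genes at chr1:226679269-226714218 with 5 probes. HIST4H4 lay at chr12:14813329-14815332 with 2 probes. No gene annotation of hg18 was used, so the positions of probes within exons or UTRs are not given.

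The transfected precursor gives rise to hsa-miR-27a-3p, shown with its seed (bases 2 to 8) in capitals and taken from RefSeq on GRCh38.p14, chr19:13836447-13836467, minus strand.
hsa-miR-27a-3p: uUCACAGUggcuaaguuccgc
Known elements of histone promoters are shown because they differ by class. RefSeq promoters of 300 bases, from 250 before to 50 after the start on GRCh38.p14, were found for 59 of the 64 genes, and short motifs were searched on both strands. GGTCCG, the core of the H4 promoter element, was present in 11 of 12 H4 promoters, against 11.2% of all 27305 promoters. Its first base lay at −47 to −44 from the start in these 11 promoters. The stretch from 15 bases before it to 15 bases after it is shown, with the core in capitals, for 6 of these 11 genes, 3 with a difference between the groups of more than 1 log2 unit and 3 with one of less than 0.2, each of them read well above background on every array.
HIST1H4B (chr6:26027309-26027344, minus strand): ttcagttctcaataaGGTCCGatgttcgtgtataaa
HIST1H4D (chr6:26189136-26189171, minus strand): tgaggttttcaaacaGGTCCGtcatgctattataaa
HIST1H4L (chr6:27873559-27873594, minus strand): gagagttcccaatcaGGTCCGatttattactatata
HIST1H4E (chr6:26204549-26204584, plus strand): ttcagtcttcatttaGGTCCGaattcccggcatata
HIST1H4H (chr6:26285560-26285595, minus strand): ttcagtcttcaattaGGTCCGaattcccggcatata
HIST2H4A (chr1:149832596-149832631, plus strand): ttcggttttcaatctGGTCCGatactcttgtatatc
The first 3 are the genes with the larger differences, and all 6 were chosen from promoters with the core, so that its presence in them tells nothing about the difference. The H4 promoter without these 6 letters was that of HIST1H4G, which was at 1.12 log2 units and near background. HIST1H4C and HIST1H4A have no entry in the promoter table.
ATTTGCAT, the octamer bound by POU2F1 (OCT1), was present in 13 of 17 H2B and 11 of 14 H2A promoters, in 1 of 10 H3 promoters and in none of the 12 H4 or 6 H1 promoters, against 1.8% of all promoters. The H3 promoter with it, that of HIST1H3D, had the same window as HIST1H2AD, so its octamer is not a separate H3 one. The octamers occupied 16 positions, of which 8 fell in windows of both an H2A and an H2B gene. It is shown in capitals for 3 H2B genes, with 15 bases to each side.
HIST1H2BK (chr6:27146882-27146919, minus strand): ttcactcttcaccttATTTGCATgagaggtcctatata
HIST1H2BG (chr6:26216714-26216751, minus strand): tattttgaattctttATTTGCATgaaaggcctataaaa
HIST2H2BE (chr1:149886706-149886743, minus strand): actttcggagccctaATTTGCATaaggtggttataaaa
The promoter of HIST1H2BD, the H2B gene called below, does not hold these 8 letters. CCAAT, read by the NFY complex, was in all 6 H1, 14 H2A, 17 H2B and 10 H3 promoters and in 3 of 12 H4 promoters, against 35.7% of all. The H3 count includes the window that HIST1H3D shares with HIST1H2AD. AAACACA, the H1 box, was in 6 of 6 H1 promoters and in 5.76% of all. These matches describe the letters of the windows only.

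All 6 arrays had 72 of the 85 probes well above background, while 7 were so on none and 6 on some of them. On pre-control arrays 1 to 3 the number well above background was 72, 73 and 73, and on pre-miR-27a arrays 1 to 3 it was 78, 78 and 75. Every probe that was seen on some arrays only was seen on more pre-miR-27a arrays than pre-control arrays: HIST1H2AA and HIST1H4A on 1 against 3, HIST4H4 on 0 against 3, and HIST1H2AL, HIST1H4G and a HIST3H2BB probe on 0 against 2. The share of all array probes well above background was also higher there, at 73.6% to 77.6% against 69.4% to 73.4%. Local background had a median of 52.5 to 53 intensity units there against 74.5 to 76. Spots not found were also more numerous there, at 3487 to 4153 against 1559 to 1750 of 43376. The part of these in the detection of the histone genes was not tested. No bound on a fold could be given for the 4 of these probes that no pre-control array had well above background. Probes of HIST1H1A, the testis histone HIST1H1T and HIST1H2BA, and further probes of HIST1H2BJ, HIST1H2BN, HIST1H3G and HIST4H4, were not well above background on any array. Those of HIST1H2BA and HIST1H2BJ were also missing on more than 1 array and were not tested. That left 83 histone probes.

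Among the 83 probes tested, 4 were called, beside 7.83% of all probes. HIST1H4D and HIST1H4B were higher in pre-miR-27a arrays, beside 3.95% of all probes, and HIST2H2AA3 and HIST1H2BD were lower, beside 3.88%. Beside the threshold, HIST1H4D and HIST1H2BD passed with adjusted p = 0.0424 and 0.0464, and HIST1H4C and HIST1H4L missed it with 0.0517 and 0.0534. With the replicate number fitted as a block, 10 histone probes were called, 8 higher and 2 lower, beside 14.9% of all probes (7.24% higher and 7.62% lower). With each array scaled to its 75th percentile 1 probe was called, HIST1H4D, higher, beside 8.93% of all probes. Leaving out any 1 of the 6 arrays left 0 histone probes called by limma, with 16 to 27 at an unadjusted p under 0.05 (22 with all arrays, or 26.5%), beside 19.8% to 23.6% of all probes (24.8% with all arrays), while 1226 probes of the whole array were called without pre-control array 1 and 0 without any other array. The values of the groups did not overlap for 10 higher and 17 lower histone probes, beside 32.5% of all probes (14.8% higher and 17.8% lower).

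Medians were then taken by class. Over the 83 probes, 32 were higher after pre-miR-27a and 51 lower, with a median of −0.09 log2 units, beside a median of −0.022 and 46.4% higher over all probes. Among probes well above background on all 6 arrays, the 4 H1 probes had a median of 0.70, the 21 H2A probes −0.11, the 21 H2B probes −0.26, the 15 H3 probes 0 and the 11 H4 probes 0.01. H1 and H2B kept their sign in every setting tried. The median of all H2A probes was −0.10, and it turned to 0.05 without pre-control array 2 and to 0.02 without pre-miR-27a array 3. For H3 it was −0.02 and turned to 0.07 in both of these, and for H4 it was 0.16 and turned to −0.10 without pre-control array 3.

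**Figure D1:**
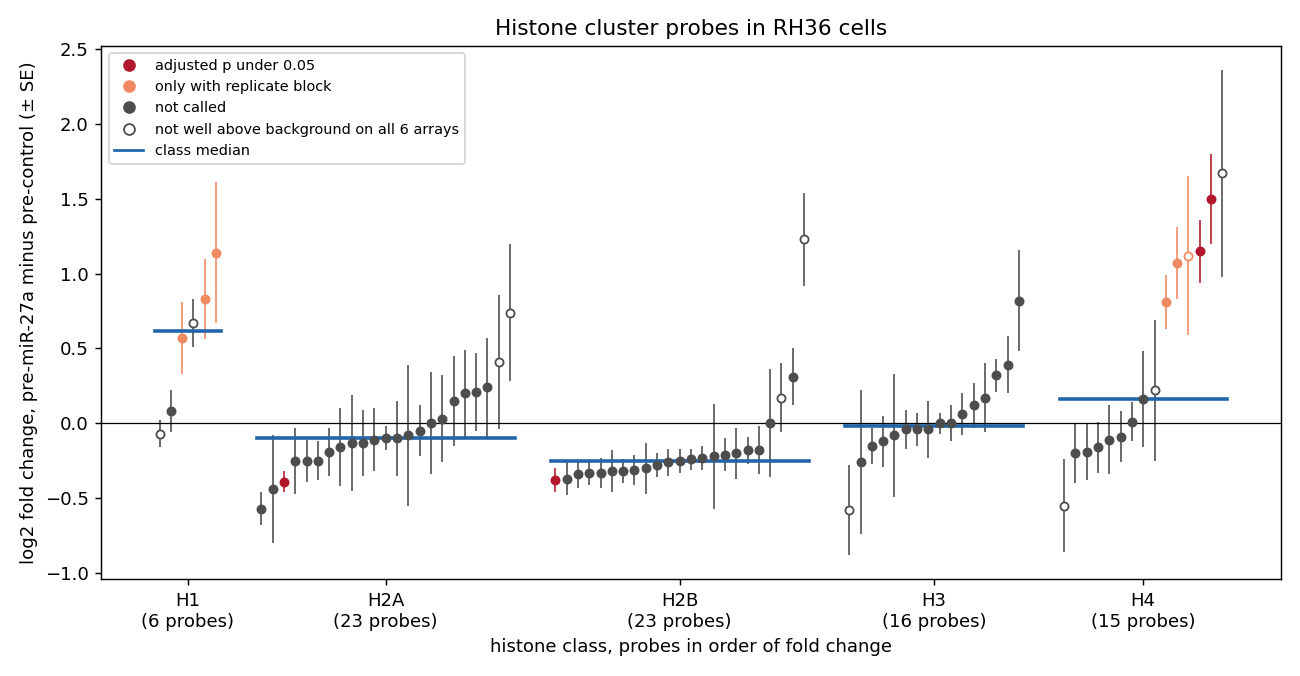
The log2 fold change of each of the 83 histone probes (pre-miR-27a minus pre-control, ± SE, 3 arrays in each group) by class and in order of size, with filled points for probes well above background on all 6 arrays and a line at the class median. Most H2B probes lie in a narrow band below 0 around −0.25. All H2B probes range from −0.38 to 1.23 and all H4 probes from −0.55 to 1.67. Among filled points these ranges are −0.38 to 0.31 and −0.20 to 1.50.

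H4 histones pair with H3 at the centre of the spool. Of 11 H4 genes well above background on all arrays, 4 lay at 0.81 to 1.50 log2 units and the other 7 between −0.20 and 0.16. The HIST1H4D probe (chr6:26296931-26296990, minus strand) read 11.52, 11.65 and 10.78 on pre-control arrays 1 to 3 and 12.96, 13.11 and 12.39 on pre-miR-27a arrays 1 to 3. The groups did not overlap, and array 3 was the lowest of each group. The fold change was 1.50 (SE 0.30, adjusted p = 0.0424), a 2.83-fold difference in signal. HIST1H4B (chr6:26135128-26135187, minus strand) read 14.23, 14.38 and 13.79 and then 15.36, 15.53 and 14.98. Again every pre-miR-27a array was above every pre-control array and array 3 was lowest in both groups, with a fold change of 1.15 (SE 0.21, adjusted p = 0.0361), or 2.22-fold. Leaving out single arrays gave 0.98 to 1.31 for HIST1H4B with adjusted p of 0.0745 to 0.12 and 1.23 to 1.72 for HIST1H4D with 0.0772 to 0.135.

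HIST1H4L, in the third HIST1 stretch (chr6:27948928-27948987, minus strand), read 14.71, 14.73 and 14.11 on pre-control arrays and 15.68, 15.83 and 15.24 on pre-miR-27a arrays. Its groups did not overlap, and its fold change was 1.07 (SE 0.24, adjusted p = 0.0534, or 0.0334 with the replicate block). HIST1H4C (chr6:26212447-26212506, plus strand) read 16.39, 16.40 and 15.89 and then 17.06, 17.19 and 16.86. The difference of 0.81 (SE 0.18) again had no overlap, with an adjusted p of 0.0517 and 0.0334 with the block. Both were called in 5 of 7 other settings.
Differences between arrays of the same number were more alike than the arrays themselves: 1.44, 1.46 and 1.60 for HIST1H4D, 1.13, 1.15 and 1.18 for HIST1H4B, 0.97 to 1.13 for HIST1H4L, and 0.67, 0.79 and 0.96 for HIST1H4C. Each of these differences was above 0.

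The other 7 H4 genes well above background on all arrays had smaller differences, and the difference between H4 genes was not tested. HIST1H4E, whose probe lies next to that of HIST1H4D among the H4 probes of the first stretch, read 9.17, 9.5 and 8.42 on pre-control arrays and 9.35, 9.42 and 8.78 on pre-miR-27a arrays. The groups overlapped, and the fold change was 0.16 (SE 0.32, adjusted p = 0.817). HIST1H4H was at 0.01 (SE 0.13), HIST1H4I at −0.09 (SE 0.17), HIST1H4K at −0.11 (SE 0.23), HIST1H4F at −0.16 (SE 0.17), HIST2H4A at −0.19 (SE 0.19) and HIST1H4J, missing on pre-control array 3, at −0.20 (SE 0.20), with adjusted p of 0.603 to 0.987. Each of these 6 also had overlapping groups.
HIST1H4G, well above background on 2 pre-miR-27a arrays and on no pre-control array, had a measured difference of 1.12 (SE 0.53, adjusted p = 0.266, or 0.0447 with the block). Its same-numbered arrays differed by 1.60, 0.89 and 0.89, all higher in pre-miR-27a arrays, and the value was 0.05 with normexp background correction. The 2 probes of HIST4H4, a gene outside the large clusters, had 1.67 (SE 0.69, n = 2 pre-miR-27a arrays) and −0.55 (SE 0.31, n = 2 pre-control arrays), neither called. With normexp correction these were 0.44 and 0.18.

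**Figure D2:**
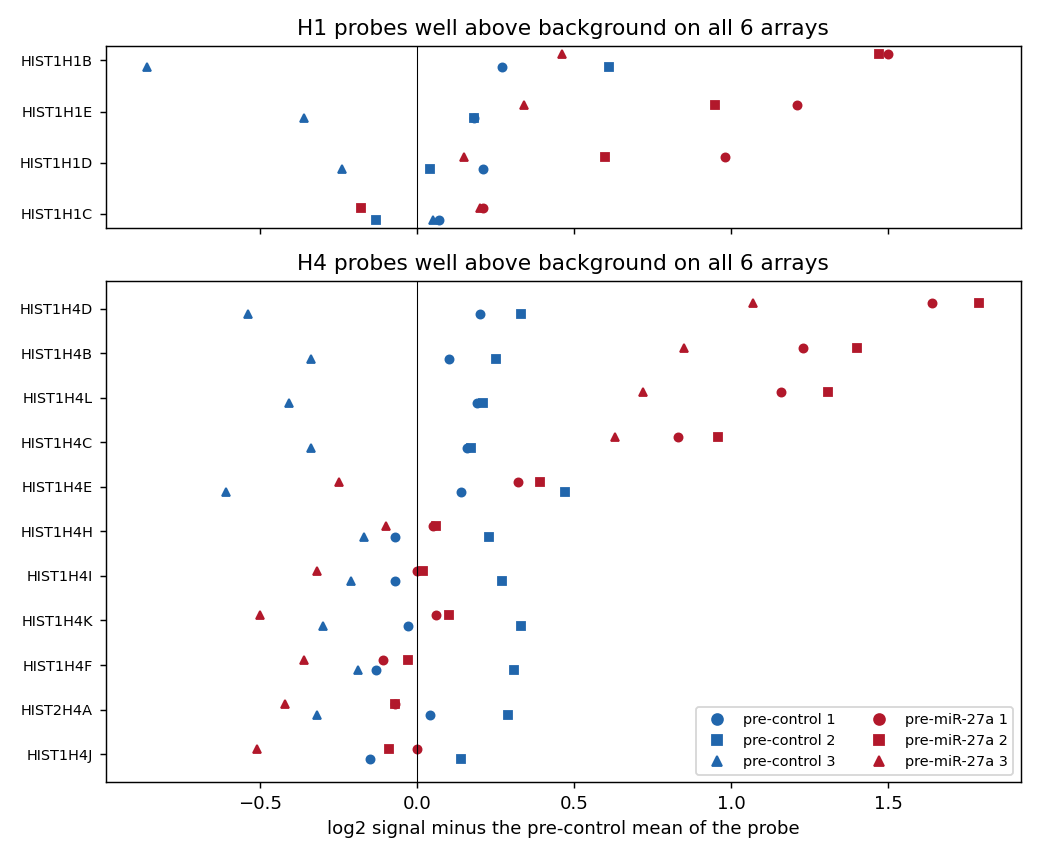
Levels of 4 H1 and 11 H4 probes on each array, as log2 signal minus the probe's mean on pre-control arrays, with circles, squares and triangles for arrays 1, 2 and 3 and blue and red for pre-control and pre-miR-27a. HIST1H4D, HIST1H4B, HIST1H4L and HIST1H4C have all red points to the right of all blue ones, the other H4 probes have mixed colours, and triangles mostly lie to the left of the other symbols of their colour.

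Linker histones sit outside the spool and compact the chain. Of the 4 H1 genes well above background, 3 had positive differences that only the fit with the replicate block called. That fit called 14.9% of all probes (7.24% higher). The HIST1H1E probe (chr6:26264907-26264966, plus strand) read 9.77, 9.77 and 9.23 on pre-control arrays and 10.80, 10.54 and 9.93 on pre-miR-27a arrays. The groups did not overlap, with a fold change of 0.83 (SE 0.27, adjusted p = 0.133, or 0.0337 with the block). HIST1H1B, in the third HIST1 stretch, read 7.52, 7.86 and 6.39 and then 8.75, 8.72 and 7.71. Its pre-miR-27a array 3 lay below pre-control array 2, and the fold change was 1.14 (SE 0.47, adjusted p = 0.212, or 0.0334 with the block). Without pre-control array 3 it was 0.72, and the values without single arrays reached 1.48. HIST1H1D read 8.20, 8.03 and 7.75 and then 8.97, 8.59 and 8.14, overlapping between the groups, with a fold change of 0.57 (SE 0.24, adjusted p = 0.214, or 0.0472 with the block). Without pre-miR-27a array 1 it was 0.37, and the highest value was 0.78. Arrays of the same number differed by 0.69 to 1.03 for HIST1H1E, 0.87 to 1.32 for HIST1H1B and 0.39 to 0.77 for HIST1H1D.
HIST1H1C, which can also make polyadenylated mRNA, read 11.31, 11.11 and 11.29 on pre-control arrays and 11.45, 11.06 and 11.44 on pre-miR-27a arrays. Its groups overlapped, and the difference was 0.08 (SE 0.14, adjusted p = 0.774). Its lowest array was number 2 in both groups, where the other 3 were lowest on number 3.

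H2B pairs with H2A on the outer faces of the spool. Of 21 H2B probes well above background on all arrays, 19 were lower in pre-miR-27a arrays, by 0.18 to 0.38 log2 units. Only 1 of the 21 was called, beside 7.83% of all probes. Among these 21 probes the groups did not overlap for 15, all lower, beside 17.8% of all probes, and a dim HIST3H2BB probe described below was higher without overlap. The called probe, HIST1H2BD (A_24_P146211, chr6:26266453-26266512, plus strand), read 9.61, 9.65 and 9.62 on pre-control arrays and 9.24, 9.17 and 9.34 on pre-miR-27a arrays. Every pre-miR-27a array was lower, and the fold change was −0.38 (SE 0.08, adjusted p = 0.0464), or 1.30-fold lower. Leaving out single arrays moved it between −0.42 and −0.34, with adjusted p of 0.0972 to 0.139.

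The small differences went with a small spread. The median SE of the 23 H2B probes tested was 0.10, against 0.26 for H2A, 0.23 for H4 and 0.14 for all probes. HIST1H2BL read 11.58, 11.44 and 11.51 and then 11.29, 11.12 and 11.34, without overlap, at −0.26 (SE 0.09, adjusted p = 0.16). HIST1H2BF read 11.12, 11.19 and 11.22 and then 10.86, 10.77 and 10.94, also without overlap, at −0.32 (SE 0.08, adjusted p = 0.0743, and 0.0278 with normexp background correction). HIST1H2BI had pre-control arrays at 10.24 to 10.26 and pre-miR-27a arrays at 9.97 to 10.05, and it was −0.24 (SE 0.07, adjusted p = 0.0976). The 2 probes of HIST1H2BE both gave −0.33, with adjusted p of 0.0601 and 0.11, and HIST1H2BK gave −0.34 (SE 0.09, adjusted p = 0.0925).
Lower levels were found in each stretch with H2B genes. They held for 9 of 10 H2B probes in the first HIST1 stretch, for 2 of 2 in the second and for 4 of 5 in the third. In HIST2 they held for 2 of 3 probes, all of 1 gene, HIST2H2BE. In HIST3 they held for 2 of 3 probes, all of 1 gene, HIST3H2BB. The medians were −0.30, −0.26, −0.25, −0.20 and −0.22 in the same order. In 17 of 23 H2B probes all 3 pairs of same-numbered arrays were lower, beside 33.6% of all probes.

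Exceptions among H2B were few. A HIST1H2BD probe on the opposite strand (A_32_P152348, chr6:26266524-26266583, minus strand), designed from an expressed sequence tag, read 11.62, 11.77 and 10.60 and then 11.60, 11.46 and 10.94. The groups overlapped, with a difference of 0.00 (SE 0.36), and the SD of pre-control arrays was 0.64, against 0.02 for the plus-strand probe. The HIST2H2BE gene had probes at −0.37 (SE 0.11, adjusted p = 0.0991), −0.20 (SE 0.17, n = 2 pre-miR-27a arrays) and 0.31 (SE 0.19, adjusted p = 0.373), of which the first and second had no overlap between groups and the last did. HIST3H2BB had a probe at −0.28 (SE 0.08, adjusted p = 0.0879), with pre-control arrays all at 10.49 and pre-miR-27a arrays at 10.12 to 10.27. Its opposite-strand probe, which shares 1 base of position with it, was at −0.22 (SE 0.35) with overlap. The remaining probe, above background on 2 pre-miR-27a arrays only, read 3.52, 2.31 and 3.20 and then 4.33, 4.13 and 4.26, a measured difference of 1.23 (SE 0.31, adjusted p = 0.0753).

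**Figure D3:**
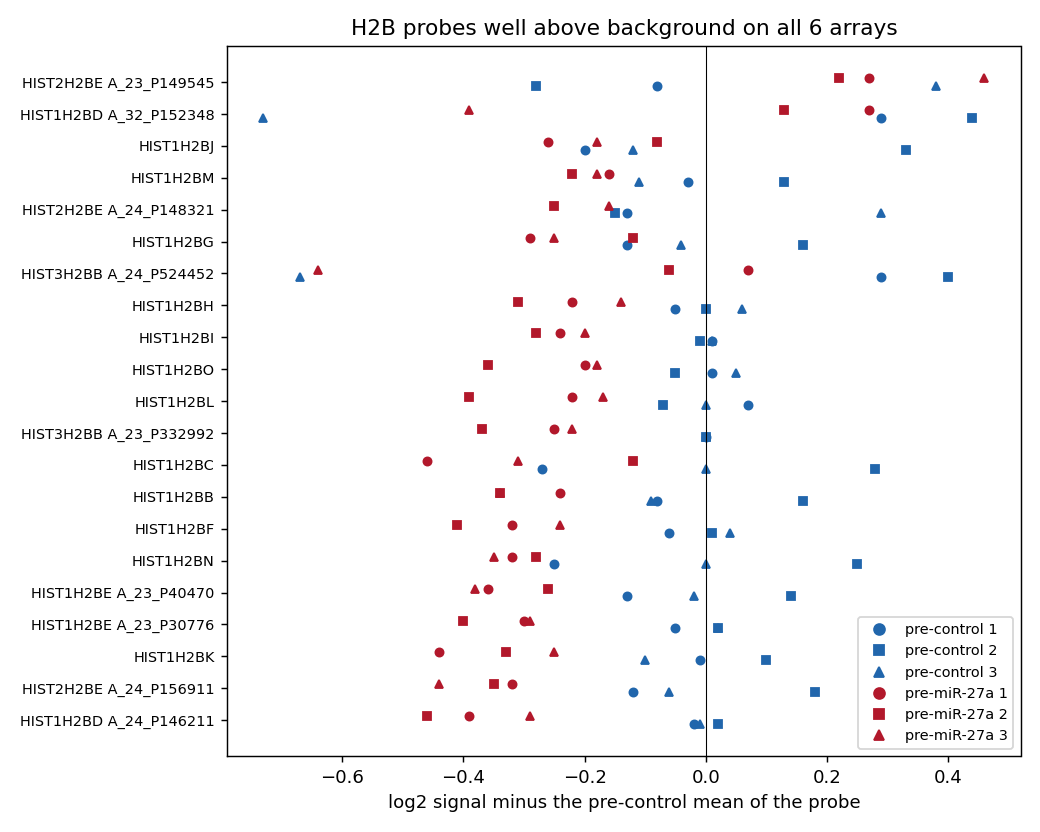
Levels of the 21 H2B probes well above background on each array, as log2 signal minus the probe's mean on pre-control arrays, with symbols for array number and colours for group. In 15 probes all pre-miR-27a points lie to the left of all pre-control points, and the top probes are the HIST2H2BE probe at 0.31 and the opposite-strand HIST1H2BD probe at 0.00.

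For H2A, 16 of 23 probes were lower and 7 higher, and the differences were mostly smaller than the spread between arrays. Of the 23 probes 1 was called, beside 7.83% of all probes. HIST2H2AA3 (A_23_P103981, chr1:148089729-148089785, plus strand) read 11.61, 11.63 and 11.61 on pre-control arrays and 11.28, 11.15 and 11.24 on pre-miR-27a arrays. The groups did not overlap, and the fold change was −0.39 (SE 0.07, adjusted p = 0.0377), or 1.31-fold lower. Without single arrays it was −0.42 to −0.35, with adjusted p of 0.0854 to 0.114. Its other probe, in the same gene, read 7.82, 7.90 and 7.53 and then 7.64, 7.51 and 7.34, with overlap, and gave −0.25 (SE 0.14, adjusted p = 0.323).
HIST1H2AD read 10.57, 10.72 and 10.47 on the 3 pre-control arrays and 10.06 and 9.97 on pre-miR-27a arrays 2 and 3. It was the other H2A probe without overlap, so 2 of 23 had none, beside 32.5% of all probes. Its difference of −0.57 (SE 0.11) missed the threshold with an adjusted p of 0.0548 and was called in 5 of 7 other settings.
HIST2H2AC (A_24_P8721) read 12.05, 12.28 and 11.39 and then 12.23, 12.02 and 11.56, a difference of 0.03 (SE 0.29, adjusted p = 0.961). HIST2H2AB (A_24_P68631) read 11.53, 11.72 and 10.97 and then 11.54, 11.44 and 10.94, a difference of −0.10 (SE 0.25, adjusted p = 0.851). In both, arrays of a group lay farther apart than the groups. Leaving out single arrays moved HIST2H2AC between −0.22 and 0.23 and HIST2H2AB between −0.32 and 0.08.

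For H3, 7 probes were higher and 9 lower, and limma called 0 in either fit (1 at an unadjusted p under 0.05). Of all probes, 7.83% were called, or 14.9% with the block, and 24.8% had an unadjusted p under 0.05. HIST1H3E (chr6:26333545-26333604, plus strand) read 14.41, 14.68 and 14.48 and then 14.82, 14.99 and 14.74, without overlap. Its fold change was 0.32 (SE 0.11, adjusted p = 0.153, and 0.0505 with the block). HIST1H3J read 11.74, 12.88 and 12.80 and then 13.01, 13.54 and 13.33, also without overlap, at 0.82 (SE 0.34, adjusted p = 0.214). Without pre-control array 1, the lowest, the value was 0.45. HIST1H3F was higher in each same-numbered pair, by 0.27 to 0.52, with a fold change of 0.39 (SE 0.19, adjusted p = 0.284).
HIST1H3A read 14.51, 14.79 and 14.44 and then 14.51, 14.67 and 14.42, a difference of −0.04 (SE 0.13, adjusted p = 0.88). The probe named for HIST3H3, a testis histone, read 16.27, 16.28 and 16.34 and then 16.31, 16.25 and 16.33, a difference of 0.00 (SE 0.07, adjusted p = 0.998), and it was −0.19 with 75th percentile scaling. Both HIST2H3A probes, at −0.04 (SE 0.11) and 0.00 (SE 0.12), also overlapped between the groups.

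Arrays of the same number moved together in most classes. Over 75 histone probes measured on all arrays, deviations from the group mean correlated at 0.36, 0.83 and 0.77 between arrays numbered 1, 2 and 3 of the 2 groups, and at −0.75 to 0.09 between arrays of different numbers. Deviations from a mean cancel out within each group, which pulls values between different numbers down, so these add no separate evidence. All of these correlations describe probes, which share the arrays and may share transcripts. Array 3 was the lowest of its group for 12 of 13 H4 probes on pre-control arrays and 13 of 14 on pre-miR-27a arrays, and for 18 of 23 and 17 of 22 H2A probes. For all probes the shares were 37.2% and 34.5%. For H2B, array 3 was lowest for 5 of 23 and 6 of 22 probes.
The same order was seen in genes outside the clusters. Array 3 was the lowest for 29 of 41 DNA replication genes on pre-control arrays and 30 of 41 on pre-miR-27a arrays, and the highest for 9 of 10 muscle genes in each group. MYH8, an embryonic and perinatal muscle myosin, read 11.26, 11.59 and 14.14 on pre-control arrays and 11.57, 12.08 and 14.53 on pre-miR-27a arrays. The part of the muscle genes in the histone levels was not tested.

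**Figure D4:**
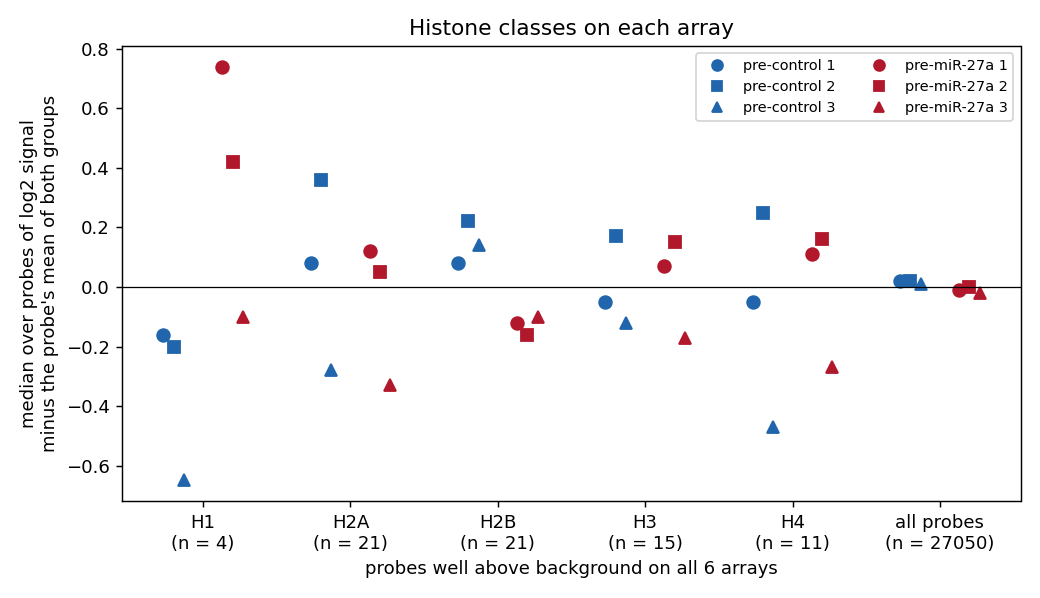
Median deviation of each histone class on each array, in log2 units from the probe's mean over both groups, for probes well above background on all 6 arrays, with all 27050 such probes at the right. Array 3 (triangles) is lowest within both groups for H1, H2A, H3 and H4, while H2B separates by group, at 0.08 to 0.22 for pre-control against −0.16 to −0.10 for pre-miR-27a.

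Different probes of a gene often disagreed. Of 15 genes with several probes well above background on all arrays, 9 had the same sign in all of them, and the median gap between the probes' fold changes was 0.21 log2 units. The widest such gap was the 0.68 of HIST2H2BE. Of the 85 probes, 9 were designed from sequences other than curated RefSeq mRNAs, and 4 of them were well above background on all arrays and 4 on none. The called probes of HIST1H4B, HIST1H4D, HIST2H2AA3 and HIST1H2BD were all designed from curated mRNAs. HIST1H3B, HIST1H3D, HIST2H2AB and HIST2H2AC each had a pair of probes sharing 20 to 47 bases of position, and these pairs are not independent readings.

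Genes that supply, process or deposit histones were read by their brightest probe from a list of 66, of which 64 were tested. Of these, 34 were higher and 30 lower with a median of 0.02 log2 units, and 4 were called (8 with the block), beside the same 7.83% of all probes (14.9% with the block). Of 33 other probes of these genes, 6 were called, all higher, beside 3.95% of all probes called higher. They were for NPAT, XRN1, CABIN1, ATRX, SUPT16H and ANP32E, 1 probe each. The NPAT probe, for the activator of histone genes at S phase entry, read 8.08, 8.15 and 7.80 on pre-control arrays and 8.37, 8.61 and 8.22 on pre-miR-27a arrays. The groups did not overlap, at 0.39 (SE 0.15, adjusted p = 0.176, or 0.0446 with the block). Its dimmer probe read 7.61, 7.53 and 7.06 and then 8.73, 8.96 and 8.49 and was called, at 1.33 (SE 0.19, adjusted p = 0.0234). Both probes of NPAT were higher in every same-numbered pair.
HINFP, which binds the H4 promoter element, was at 0.12 (SE 0.09, adjusted p = 0.483) and POU2F1 at 0.07 (SE 0.09, adjusted p = 0.721). YY1, a zinc finger factor that binds histone gene coding elements among many others, read 11.92, 11.85 and 11.85 and then 12.53, 12.55 and 12.44, and was called higher at 0.63 (SE 0.07, adjusted p = 0.0184). NFYC, a subunit of the CCAAT-binding complex, was called lower at −0.41 (SE 0.09, adjusted p = 0.0467), while its other probe was at −0.19 (adjusted p = 0.315).

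SLBP, the stem-loop binding protein, read 13.88, 13.98 and 13.71 on pre-control arrays and 14.35, 14.31 and 14.16 on pre-miR-27a arrays. No values overlapped, and the difference was 0.41 (SE 0.10, adjusted p = 0.0745, or 0.0402 with the block). LSM10, a core protein of the U7 particle that cuts histone pre-mRNA, read 11.93, 12.13 and 12.01 and then 11.41, 11.49 and 11.49, and was called lower at −0.56 (SE 0.08, adjusted p = 0.0247). Its partner LSM11 was at −0.25 (SE 0.23, adjusted p = 0.576), with a dimmer probe at 0.55 (adjusted p = 0.149). By their brightest probes, none of 15 genes of histone mRNA decay and translation was called by limma in either fit. Of all probes, 7.83% were called, or 14.9% with the block. At an unadjusted p under 0.05 were 4 of the 15 genes, beside 24.8% of all probes. XRN1, the exonuclease that degrades decapped mRNA, was at 0.06 by its brightest probe, while a dim one, well above background on pre-miR-27a arrays only, was called at 1.45 (adjusted p = 0.0414), at least 2.1-fold higher. Among 20 chaperone genes 1 was called by its brightest probe, beside the same 7.83% of all probes. This was HIRA, which deposits replication-independent H3, at 0.40 (SE 0.08, adjusted p = 0.0487). The dimmer probes called for CABIN1, ATRX, SUPT16H and ANP32E were at 0.62, 0.81, 1.28 and 0.69, against −0.14, 0.14, −0.04 and 0.13 for the brightest. Further probes of ATRX and XRN1 were at −0.37 (SE 0.08, adjusted p = 0.051) and 0.29 (SE 0.10, adjusted p = 0.135). Without any 1 array, 0 to 2 of the 64 genes were called, 2 of them without pre-control array 1, beside 3.36% of all probes there and 0 without any other array.

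**Figure D5:**
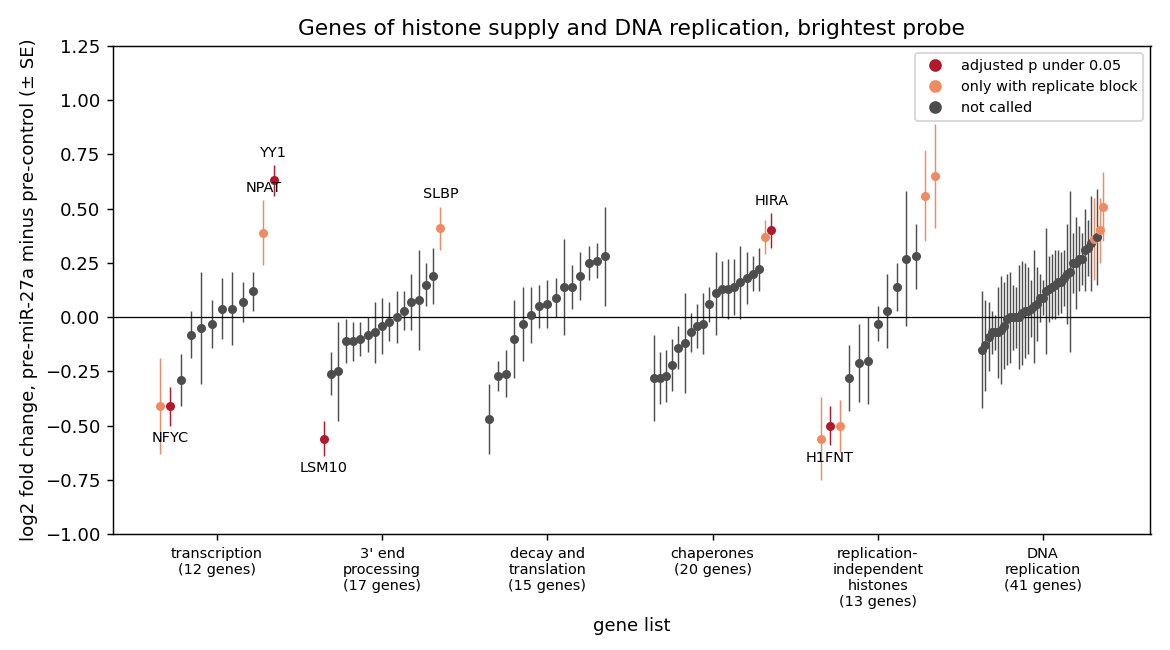
The log2 fold change (pre-miR-27a minus pre-control, ± SE) of the brightest probe of each gene in lists of histone supply, replication-independent histones and DNA replication, coloured as for the histone probes. YY1 at 0.63 and LSM10 at −0.56 lie farthest from 0 among the regulators, and the DNA replication genes lie mostly just above 0.

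Of 13 tested histone genes listed as replication-independent, whose mRNAs are mostly polyadenylated, 1 was called, beside 7.83% of all probes. Whether each of them is independent of replication in these cells was not tested. H1FNT, a testis H1, read 7.59, 7.67 and 7.64 and then 7.00, 7.23 and 7.17, without overlap, at −0.50 (SE 0.09, adjusted p = 0.0346). With the block 5 were called, 2 higher and 3 lower, beside 14.9% of all probes. H2AFX, whose protein is phosphorylated at DNA breaks, was higher at 0.56 (adjusted p = 0.177, or 0.0334 with the block), and H2AFJ and H2AFY2 were lower at −0.56 (0.139, or 0.0357) and −0.50 (0.0624, or 0.0484). The replacement histones H3F3A and H3F3B were at −0.03 (SE 0.08) and 0.14 (SE 0.11), and H2AFZ at −0.20 (SE 0.20). Their other probes were at −0.28 to 0.14, 0.03 to 0.13 and −0.42 to −0.28 in the same order, none called in either fit.
Of 41 DNA replication genes, 32 were higher and 9 lower with a median of 0.09 log2 units. By their brightest probes limma called 0, beside 7.83% of all probes. At an unadjusted p under 0.05 were 2 (PCNA and POLE2), beside 24.8% of all probes. The block called 3, all higher, beside 7.24% of all probes, among them POLE2, a polymerase subunit, at 0.51 and PCNA, the sliding clamp, at 0.40. Of 17 other probes limma called 1, beside the same 7.83% of all probes. It was for POLE, the catalytic subunit of polymerase epsilon, lower at −0.90 (adjusted p = 0.019, or 0.0334 with the block), while the brightest POLE probe was at 0.25. With the block 3 of the other probes were called higher and 1 lower, beside 7.24% and 7.62% of all probes.

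On single arrays 69.4% to 77.6% of all probes were well above background. Of 11 muscle genes listed, MYF5 had no probe kept, and the 10 tested were well above background on every array. By their brightest probes none was called by limma, beside 7.83% of all probes. At an unadjusted p under 0.05 were 4 of them, beside 24.8% of all probes. The block called 1 higher and 4 lower, beside 14.9%, among them the muscle regulator MYOG at −0.95 (adjusted p = 0.14, or 0.0334 with the block). A dimmer probe of CHRNA1, a subunit of the muscle acetylcholine receptor, was called higher at 0.95 (adjusted p = 0.0216), while its brightest probe was at −0.15. Of 11 markers of epithelial, blood and endothelial cells, 3 were well above background on all arrays (CLDN4, CD3E and CD14) and 6 on none, EPCAM, CDH1, PTPRC and PECAM1 among them. CD14 was called lower at −0.71 and CD3E at −0.44, while the other CD3E probe was at −0.05 (adjusted p = 0.874), and their part in the histone values was not tested. Levels on bulk arrays do not separate the number of cells in S phase from the histone mRNA of each cell.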

How the data were processed

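Single-colour Agilent whole-genome arrays of RH36 cells were used, 3 with pre-control and 3 with pre-miR-27a. The authors deposited processed intensity for every spot, from Agilent Feature Extraction 10.5.1.1, with background subtracted within the array and no normalization between arrays. Their deposited matrix of normalized log2 values, with 79 histone probes among 33169, served as an alternative. Log2 intensities were quantile normalized, spots not found were set to missing, replicate spots were averaged, and probes missing on more than 1 of 6 arrays were removed, after the study's methods. limma (version 3.58.1, in R 4.3.3 with version 1.17.8 of data.table) replaced the study's SAM, with Benjamini-Hochberg adjustment over all 36469 probes at 0.05. It was run on simulated data with changes larger than the histone differences here and without shared replicate effects. That run does not show how small differences are recovered. Python 3.11.15 with pandas 2.3.3 and matplotlib 3.10.9 read promoters and drew plots. An exact permutation test of 3 against 3 arrays cannot give a two-sided p below 0.1. Precision is limited by the number of arrays.

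The replicate numbers come from the labels. Over 31717 probes, same-numbered arrays deviated together from the group means, with correlations of 0.40, 0.46 and 0.41 against −0.27 to −0.12 for different numbers. Deviations from a mean cancel out within each group, which pulls values between different numbers down, so these add no separate evidence. The main fit did not use this pairing, and its SEs and adjusted p-values ignore it. A fit with the replicate number as a block was run beside it, and the blocked value is printed where it changes a call. Alternatives were 75th percentile scaling, normexp correction (offset 50), the deposited log2 values, a variance trend with robust estimation, keeping all dim probes, keeping only probes well above background, the replicate block, other choices of probe per gene, and leaving out single arrays. Histone probes were chosen by name, and the genes and lists were chosen with earlier results of these data known. Named were probes with an adjusted p under 0.05, the 3 brightest of each class, called genes of the lists, NPAT and SLBP, and others after their values were seen. Promoters were matched to RefSeq by mRNA accession, then by symbol. The values of 1 DNA replication gene are not reported here.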

Additional observations from a re-analysis of the deposited data

How the results depend on the processing

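The 4 histone probes called became 1 with 75th percentile scaling, 9 with normexp correction, 7 with a filter on probes well above background, 8 with the authors' deposited values, 9 with a variance trend and robust estimation, and 10 with the replicate block. The shares of all probes called were 8.93%, 9.67%, 12.9%, 10.1%, 9.26% and 14.9% in the same order, against 7.83%. The count stayed within 1.5 times of 4 with no filter on dim probes and with the brightest probe of each gene. Of 64 regulators, the 4 called became 2 with 75th percentile scaling, 7 with the variance trend, 8 with the block and 10 when any probe of a gene counted. Of the replication-independent histones, the 1 called became 2 with normexp correction, with the stricter filter and with the variance trend, and 5 with the block. DNA replication genes went from 0 to 3 with the block. Leaving out single arrays gave 0 histone probes, 0 to 2 regulators and 0 replication-independent histones, beside 0% to 3.36% of all probes.

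The sign of 31 of 83 histone probes turned in at least 1 setting. Their fold changes had a median size of 0.11, and 6 were above 0.2, the largest a HIST4H4 probe that went from −0.55 to 0.18 with normexp correction. Without single arrays HIST2H2AC ranged from −0.22 to 0.23, HIST2H2AB from −0.32 to 0.08, the opposite-strand HIST1H2BD probe from −0.36 to 0.22, HIST3H3 from −0.02 to 0.02 and HIST1H3A from −0.11 to 0.07. The HIST1H2BD probe was −0.05 with normexp correction, and HIST3H3 was −0.19 with 75th percentile scaling and −0.01 in the deposited values. The cause of these changes was not tested.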
